A study of Mus musculus with 16 samples.

Results

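Feedback regulators of the extracellular signal-regulated kinase (ERK) cascade were followed in BetaTC6 cells, an established insulin-secreting line derived from a mouse insulinoma and labelled with a C57BL/6 background. The set held 10 genes chosen by name as ERK feedback genes, out of 23329 genes in the count table: the phosphatases Dusp1, Dusp2, Dusp4, Dusp5, Dusp6, Dusp10 and Dusp16, the Sprouty genes Spry2 and Spry4, and the Sprouty-related gene Spred1. All 10 were found in the table. The measurement was messenger RNA sequencing of 16 libraries in 4 groups of 4: wild-type cells with DMSO (vehicle), wild-type cells with ivermectin, cells labelled P2ry1 knockout with DMSO, and cells labelled P2ry1 knockout with ivermectin. Every group was grown for 3 days, preincubated in a glucose-free Krebs Ringer buffer with albumin, and then stimulated for 30 min with 20 mM glucose together with the drug or the vehicle. P2ry1 encodes a G protein-coupled receptor for ADP, and ivermectin is an antiparasitic compound that acts on ligand-gated ion channels. The knockout is a single line in the labels, which do not say whether it is 1 clone or whether replicates came from separate cultures, so p-values below measure only the spread between these libraries.

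MAP kinase phosphatases remove phosphate from both the threonine and the tyrosine of the activation loop of a MAP kinase and so switch it off. Several of them are immediate-early or delayed-early genes that ERK signalling itself turns on, which makes them a negative feedback. Sprouty and Spred proteins act higher up, between receptor tyrosine kinases and RAF, and are also transcribed after ERK activation. In β-cells, glucose raises calcium and cAMP, and both feed into ERK and into transcription factors that bind cAMP response elements and serum response elements.

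Library totals ran from 893088 to 2013242 counts, lowest in the 4 wild-type vehicle libraries, so that a count of 0 allowed 1.49 to 3.36 counts scaled to the library total (CPM). The 12 β-cell markers were all present, at a summed 31040 to 40490 CPM. P2ry1 itself did not separate the lines: it averaged 94.6 ± 8.57 CPM in wild-type vehicle, 93.1 ± 7.58 CPM in wild-type ivermectin, 84.0 ± 8.98 CPM in knockout vehicle and 85.5 ± 4.95 CPM in knockout ivermectin (SD, n = 4), so the genotype below is the label's. Replicates differed by more than counting noise, and wild-type ivermectin replicate 4 stood farthest from its group, with a chi-square per degree of freedom of 5.46 to 7.36 against the other 3. Transcripts of hepatocytes, which this line is not, moved with the groups: the 12 listed genes, none of them at 0 over a group, summed to 685.8 to 1820 CPM in wild-type vehicle, 190.5 to 396.2 in wild-type ivermectin, 59.7 to 124.2 in knockout vehicle and 82.2 to 288.4 in knockout ivermectin. The δ-cell list (Sst and Hhex) summed to 203 to 248 CPM in the wild-type libraries and 13.8 to 26.5 CPM in those labelled knockout, the α-cell list to 273.9 to 336.5 and 210.8 to 252.2 CPM, and pancreatic polypeptide, acinar, ductal, stromal, immune and endothelial lists stayed at or below 11.2 CPM. Alb was the highest of the hepatocyte genes, and the part of that list in the results was not tested. Fits with Alb as a covariate are given below. Alb ran from 328 to 923 CPM in wild-type vehicle, 57.7 to 172 in wild-type ivermectin and 17.1 to 52.3 in knockout vehicle. Since wild-type vehicle overlapped neither of the others, such fits cannot separate Alb from the group where it is compared with them. In bulk RNA, fewer cells of a type and less RNA per cell cannot be told apart.

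Dusp1 (chr17:26505591-26508472, minus strand), Dusp4 (chr8:34807610-34819894, plus strand) and Dusp5 (chr19:53529145-53541809, plus strand) each hold 4 exons in RefSeq on GRCm38.p6, the mm10 assembly, and encode the nuclear, inducible phosphatases of the set together with Dusp2. Dusp6 lies at chr10:99263231-99267489 (plus strand, 3 exons) and encodes the cytoplasmic phosphatase specific for ERK. Promoters were in the RefSeq table for 8 of the 10 genes, as 250 bases before to 50 after the annotated start. The 3 below are shown because Dusp1 and Dusp5 had the smallest p-values of the set for ivermectin in wild-type cells, while Dusp6 is the best-known ERK feedback phosphatase. They are written 5′ to 3′ on the gene's strand (Dusp1 chr17:26508423-26508722, Dusp5 chr19:53528895-53529194, Dusp6 chr10:99262981-99263280), with matches to the cAMP response element, its core and the CArG box in capitals.
Dusp1: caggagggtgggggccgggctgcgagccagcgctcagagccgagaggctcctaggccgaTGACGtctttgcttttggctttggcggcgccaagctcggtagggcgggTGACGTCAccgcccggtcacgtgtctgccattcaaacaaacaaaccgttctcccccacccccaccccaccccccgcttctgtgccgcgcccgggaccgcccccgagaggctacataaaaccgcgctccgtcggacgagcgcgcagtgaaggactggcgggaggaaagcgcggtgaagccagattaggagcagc
Dusp5: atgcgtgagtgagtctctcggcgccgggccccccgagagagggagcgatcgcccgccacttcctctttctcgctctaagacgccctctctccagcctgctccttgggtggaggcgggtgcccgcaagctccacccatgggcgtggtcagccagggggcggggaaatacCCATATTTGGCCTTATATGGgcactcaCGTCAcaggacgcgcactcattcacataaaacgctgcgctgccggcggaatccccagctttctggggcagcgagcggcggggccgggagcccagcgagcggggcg
Dusp6: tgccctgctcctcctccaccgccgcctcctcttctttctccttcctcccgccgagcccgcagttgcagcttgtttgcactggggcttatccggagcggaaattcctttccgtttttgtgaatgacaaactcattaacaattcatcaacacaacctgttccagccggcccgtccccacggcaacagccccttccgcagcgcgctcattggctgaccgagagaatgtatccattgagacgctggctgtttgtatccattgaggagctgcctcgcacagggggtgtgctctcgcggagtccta

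The Dusp1 promoter held the whole cAMP response element TGACGTCA at position -143 from the start and its core TGACG, which the whole element contains, again at -191. The Dusp5 promoter held a pair of adjacent CArG boxes, the core of the serum response element, at -82 and -72, and the core TGACG on the other strand at -55. None of these motifs, nor an AP-1 site (TGANTCA with C or G in the middle), an EGR site (GCGNGGGCG with T or G) or an ETS core (CCGGAA), was found in the Dusp6 window. Both strands were searched over 32851 promoters of the same length: 1.79% held TGACGTCA, 20.81% its core, 1.63% a CArG box, 5.2% the AP-1 site, 3.47% the EGR site and 14.9% the ETS core. Of the other members, the core TGACG also occurred for Dusp16 at -70 from the start of its curated transcripts, which lies 14435 bases inside the span of the gene, and for Dusp2 at 6, with an EGR match for Dusp2 at -98 and an ETS core for Spry2 at 34. A match describes letters only, not an occupied site.

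Per transcript length, the 10 genes differed widely in level. In length-scaled units (TPM, mean ± SD over 16 libraries), Dusp5 was highest at 94.2 ± 14.9, followed by Dusp4 at 63.3 ± 11.0 and Dusp1 at 41.0 ± 10.5. Dusp10 stood at 18.9 ± 3.53 TPM, Spry2 at 15.9 ± 4.36, Dusp6 at 9.57 ± 2.06, Spred1 at 6.41 ± 1.50, Dusp16 at 6.00 ± 1.29 and Spry4 at 1.61 ± 0.764. The inducible nuclear enzymes other than Dusp2 thus held the 3 highest levels. Dusp2, a nuclear phosphatase best known from activated leukocytes, was at the detection limit, with 4 counts in all 16 libraries together. Most steps of this order held within libraries: Dusp5 was above Dusp4 in 16 of 16, Dusp4 above Dusp1 in 15, Dusp1 above Dusp10 in 16, Dusp6 above Spred1 in 16 and Dusp16 above Spry4 in 16. Dusp10 and Spry2 did not separate (11 of 16), nor did Spred1 and Dusp16 (11 of 16). The top rank rests on the Dusp5 length, which was 1155 bases in the authors' transcript set against 1815 in the current RefSeq model. Scaled to the longer model, a check added after the levels were seen, Dusp5 averaged 55.4 ± 8.81 TPM and was above Dusp4 in 5 of 16 libraries. The Spred1 length was 2997 bases in that set, against 2007 and 6319 in the current RefSeq models. At the shorter Spred1 averaged 9.95 ± 2.32 TPM, with Dusp6 above it in 5 of 16 libraries, and at the longer 2.93 ± 0.682 TPM, below Dusp16 in 16. Comparisons between groups do not use these lengths. Dusp6 overlaps the antisense gene Gm34921 and Dusp16 overlaps 1700055D16Rik and Gm36328, and whether counting used strand is not given in the sources used here.

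**Figure D1:**
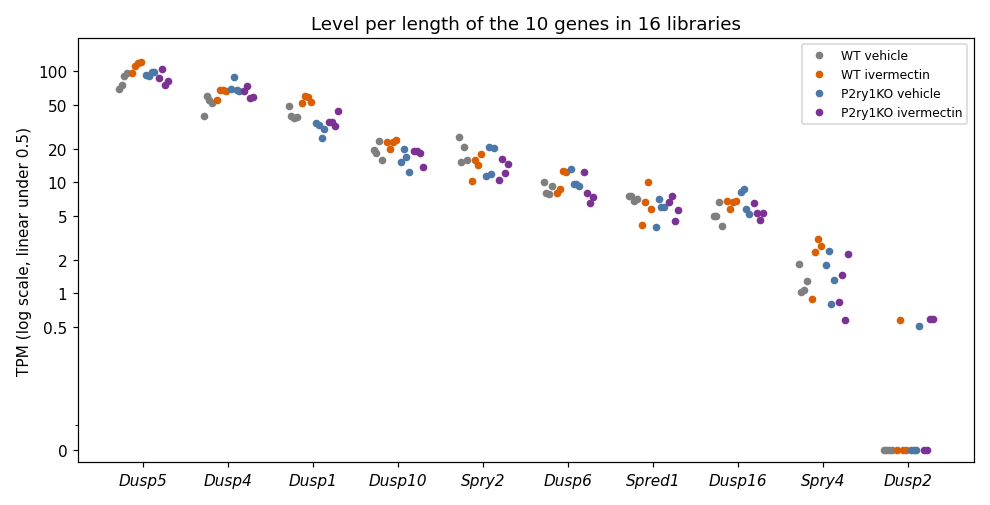
Level per transcript length of the 10 genes, in TPM on a log axis that is linear under 0.5, with 1 point per library and colours for the 4 groups. Dusp5, Dusp4 and Dusp1 lie highest, and Dusp2 is at 0 in 12 of 16 libraries.

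Ivermectin in wild-type cells was compared with vehicle to ask how 30 min of the drug moved these genes. Dusp1, the phosphatase of ERK, p38 and JNK known as MKP-1, read 58.5, 45.0, 44.9 and 43.7 CPM in the 4 vehicle libraries and 58.5, 71.3, 69.6 and 65.8 CPM with ivermectin. The groups did not overlap, but only just: the lowest ivermectin library stood at 58.47 CPM and the highest vehicle library at 58.46 CPM. On the log2 scale the difference was 0.47 (SE 0.134, 95% interval 0.20 to 0.74), or 1.38-fold, with an edgeR quasi-likelihood p of 0.00126 that became an adjusted p of 0.170 over 10820 tested genes. Dusp5, a nuclear phosphatase specific for ERK, read 46.1, 47.0, 57.7 and 59.5 CPM with vehicle and 58.5, 72.4, 77.6 and 82.7 CPM with ivermectin. Only the lowest treated library fell within the vehicle range. The Dusp5 difference was 0.44 (SE 0.129, interval 0.18 to 0.71; edgeR adjusted p = 0.192). Dusp4, also called MKP-2, read 60.7, 88.0, 83.4 and 75.2 CPM with vehicle and 78.5, 102.5, 104.1 and 106.4 CPM with ivermectin, a difference of 0.33 (SE 0.117, edgeR adjusted p = 0.567). Again 3 treated libraries were above every vehicle library and 1 was inside their range. Replicate 1 was the lowest ivermectin library for each of Dusp1, Dusp4 and Dusp5, and Alb was highest of its group there at 172 CPM. Without it the Dusp5 difference was 0.55 and passed the threshold (edgeR adjusted p = 0.0156), while Dusp1 was at 0.53 (adjusted p = 0.0544) and Dusp4 at 0.43 (adjusted p = 0.0567). Without replicate 4, the library that stood apart, the differences were 0.47 for Dusp1, 0.39 for Dusp5 and 0.29 for Dusp4.

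The remaining members were measured less precisely in that comparison. Dusp16, a phosphatase of JNK and p38, averaged 16.2 ± 4.24 CPM with vehicle and 21.0 ± 1.67 CPM with ivermectin (n = 4), a log2 difference of 0.38 (SE 0.214). Dusp10, known as MKP-5 and directed at the same stress kinases, averaged 32.7 ± 6.17 and 38.7 ± 4.05 CPM, a difference of 0.24 (SE 0.159). Dusp6 averaged 15.3 ± 2.00 and 18.6 ± 4.87 CPM, a difference of 0.24 (SE 0.245). The intervals of these 3 phosphatases all reached below 0, and leaving out 1 library gave 0.28 to 0.57 for Dusp16, 0.14 to 0.36 for Dusp10 and 0.13 to 0.38 for Dusp6. For the Sprouty and Spred genes the data gave no common direction: Spry4 differed by 0.76 (SE 0.476) at 3 to 14 counts per library, Spry2 by -0.39 (SE 0.238) and Spred1 by -0.12 (SE 0.267). Leaving out 1 library gave 0.57 to 1.08 for Spry4, -0.52 to -0.21 for Spry2 and -0.38 to 0.10 for Spred1. Counted together, 9 of the 10 genes had enough counts to be tested, Dusp2 being left out, and 7 of the 9 were higher with ivermectin and 2 lower, with a median of 0.33 where the median over all genes was 0.00030. None of the 9 passed edgeR's adjusted threshold of 0.05, against 0.601% of all tested genes, and DESeq2 called 0 too. At an unadjusted p under 0.05 there were 3 (Dusp1, Dusp4 and Dusp5), where the background was 5.2%, and 1 (Dusp1) had groups that did not overlap, where the background was 3.35%. The genes that went into these counts passed a count filter applied once to the libraries of all groups together. Spry4 had its highest group mean in wild-type ivermectin (6.83 CPM) and fell under the filter when only the wild-type libraries were fitted. Its place among the 7 higher genes is thus not independent of the filter. The set was also chosen with earlier results of these libraries known. With Alb as a covariate the errors were wider (SE 0.208 for Dusp1), 0.00924% of all genes passed, and the values moved in both directions. The Dusp4 difference shrank to 0.03, Dusp1 was at 0.36, Dusp5 at 0.34, Dusp10 at 0.23 and Dusp16 at 0.36. Those of Dusp6 (0.62), Spry2 (-0.79) and Spred1 (-0.63) grew, and Spry4 turned to -0.48.

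**Figure D2:**
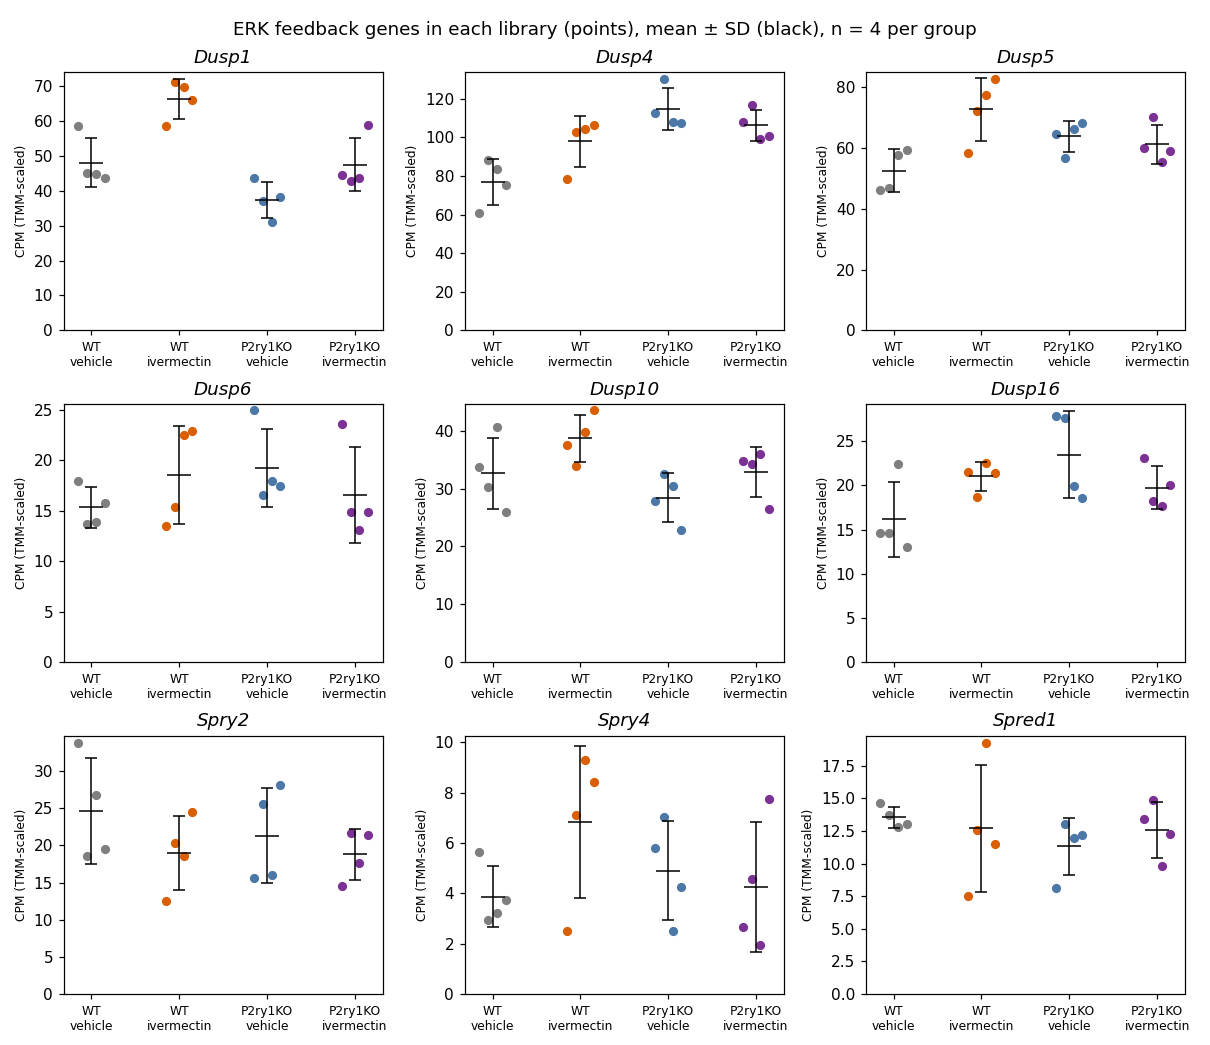
Normalised level in CPM of the 9 tested genes, with 1 point per library in replicate order, a black line for the mean and bars for the SD (n = 4 per group), each axis starting at 0. Dusp1 in wild-type ivermectin sits between 58.5 and 71.3 CPM and Dusp4 in knockout vehicle between 107.5 and 130.4 CPM, above all wild-type vehicle points, which reach 58.46 CPM for Dusp1 and 88.0 CPM for Dusp4.

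In the line labelled knockout, ivermectin was compared with vehicle in the other 8 libraries, which share no group mean with the wild-type comparison but entered the same fit and its estimate of spread. Dusp1 read 43.6, 37.1, 30.9 and 38.1 CPM with vehicle and 44.5, 42.8, 43.8 and 58.9 CPM with ivermectin. The treated values lay mostly above, but the groups overlapped. The log2 difference was 0.34 (SE 0.129, interval 0.08 to 0.60), with an unadjusted p of 0.0113 and an edgeR adjusted p of 0.594. Without ivermectin replicate 4 it was 0.23 (SE 0.133), and with every library thinned it was 0.21 (SE 0.188). Dusp5 read 64.5, 56.7, 66.4 and 68.3 CPM with vehicle and 60.0, 70.3, 55.5 and 58.9 CPM with ivermectin, a difference of -0.06 with an interval of -0.28 to 0.17. Dusp4 read 113, 130, 108 and 107.5 CPM with vehicle and 108, 117, 99.3 and 101 CPM with ivermectin, a difference of -0.11 with an interval of -0.30 to 0.08. Treated and untreated libraries of these 2 genes were intermixed. The other differences were 0.21 for Dusp10 (SE 0.144), -0.18 for Dusp6 (SE 0.202), -0.24 for Dusp16 (SE 0.170), -0.19 for Spry2 (SE 0.210), -0.21 for Spry4 (SE 0.416) and 0.15 for Spred1 (SE 0.236). Single libraries moved these values: leaving out 1 gave 0.12 to 0.29 for Dusp10, -0.42 to -0.04 for Dusp6, -0.34 to -0.14 for Dusp16, -0.32 to -0.04 for Spry2, -0.64 to 0.03 for Spry4 and 0.03 to 0.25 for Spred1. For Dusp4 the range was -0.16 to -0.04 and for Dusp5 -0.13 to -0.02, and thinning turned Spry2 to 0.32 and Dusp6 to 0.01. With Alb as a covariate Dusp4 was at -0.03, Dusp6 at -0.29, Spry2 at -0.10, Spry4 at 0.06, Spred1 at 0.27 and Dusp1 at 0.37. In sum, in the reported fit, 3 of 9 were higher and 6 lower, with a median of -0.11. No member passed the adjusted threshold with edgeR, where the background was 0% of tested genes, or with DESeq2. At an unadjusted p under 0.05 there was 1 member (Dusp1), against a background of 7.58%, and 0 members had groups that did not overlap, against 3.69%.

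Whether the drug's effect differed between the lines was tested with the interaction of genotype label and ivermectin. For Dusp5 the knockout effect minus the wild-type effect was -0.50 on the log2 scale (SE 0.171, interval -0.85 to -0.16; unadjusted p = 0.00556, edgeR adjusted p = 0.617). For Dusp4 it was -0.44 (SE 0.150; edgeR adjusted p = 0.638) and for Dusp16 -0.62 (SE 0.273; edgeR adjusted p = 0.962). Dusp1 showed -0.13 with an interval of -0.51 to 0.25, so a weaker, an equal and a stronger effect in the line labelled knockout all lay within its error. Leaving out 1 library gave -0.24 to -0.05 for Dusp1, thinning -0.32 and Alb as a covariate 0.01. The interaction was -0.42 for Dusp6, 0.20 for Spry2 and 0.27 for Spred1, with ranges of -0.65 to -0.28, 0.02 to 0.35 and 0.06 to 0.53 when 1 library was left out, and thinning gave 0.67 for Spry2. Spry4 was at -0.97 (SE 0.635) and Dusp10 at -0.03 (SE 0.216), with ranges of -1.40 to -0.73 and -0.15 to 0.07 when 1 library was left out. The sign was negative for 7 of the 9 genes, Spry2 and Spred1 being the exceptions, and the median was -0.42. No member passed the adjusted threshold with edgeR (background 0.222%) or with DESeq2, and 3 had an unadjusted p under 0.05 (background 5.11%). With Alb as a covariate, where 0% of all genes passed, the interactions of Dusp4 (-0.06) and Dusp5 (-0.38) were smaller, Dusp16 was at -0.59, those of Dusp6 (-0.91), Spry2 (0.69) and Spred1 (0.90) were larger, and Spry4 turned to 0.54.

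Since Dusp1 was higher with ivermectin on average in each line, the mean of the 2 drug effects was also fitted, a contrast added after the separate values had been seen. For Dusp1 it was 0.41 (SE 0.0929, interval 0.22 to 0.59), or 1.33-fold, rank 10 of 10820 genes by p-value, with an edgeR adjusted p of 0.108. Over 23 alternative settings the value stayed between 0.35 and 0.46, and the adjusted p ranged from 0.00705, with no filter on low counts, to 0.718 with DESeq2. Without wild-type ivermectin replicate 1 it was 0.44 (edgeR adjusted p = 0.0253). The next members were Dusp10 at 0.23 (SE 0.107) and Dusp5 at 0.19 (SE 0.0854). None of the 9 passed the adjusted threshold with edgeR in the reported fit, or with DESeq2 (background 0.0555%), and 3 (Dusp1, Dusp5 and Dusp10) had an unadjusted p under 0.05 (background 7.61%).

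**Figure D3:**
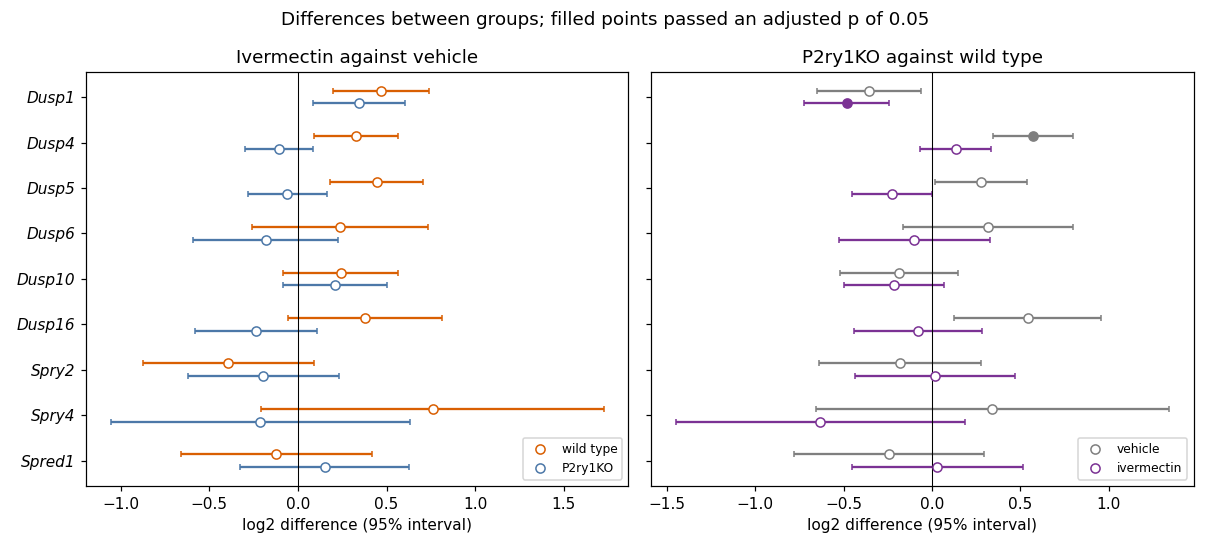
Log2 differences with 95% intervals for the 9 tested genes, ivermectin against vehicle on the left (orange wild type, blue P2ry1KO) and the line labelled P2ry1KO against wild type on the right (grey vehicle, purple ivermectin). Filled points passed an adjusted p of 0.05: Dusp4 in vehicle at 0.57 and Dusp1 in ivermectin at -0.48.

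The line labelled knockout was then compared with wild type in vehicle, bearing in mind that these wild-type libraries also served as the base of the drug comparison. Dusp4 was the member that passed: it rose from 76.8 ± 12.0 to 115 ± 10.8 CPM (n = 4), and every knockout library was above every wild-type library. The log2 difference was 0.57 (SE 0.112, interval 0.34 to 0.80; edgeR adjusted p = 0.000225), and it stayed past the threshold when any 1 library was left out, at 0.49 to 0.65. With Alb as a covariate it was 0.11 (SE 0.204; edgeR adjusted p = 0.856). That fit, in which 3.72% of all genes passed and 0 members did, could not tell Alb from the line. Dusp1 went the other way, at 48.0 ± 7.0 CPM in wild type and 37.4 ± 5.18 CPM in knockout, a difference of -0.36 (SE 0.145; edgeR adjusted p = 0.0774) without overlap, since the highest knockout library (43.6 CPM) lay just under the lowest wild-type library (43.7 CPM). Dusp16 read 14.6, 14.7, 22.4 and 13.0 CPM in wild type and 27.9, 27.6, 20.0 and 18.5 CPM in knockout, a difference of 0.54 (SE 0.206; edgeR adjusted p = 0.0570). A single wild-type library, replicate 3, was inside the knockout range, and without it Dusp16 passed at 0.74 (adjusted p = 0.0200). It also passed without knockout vehicle replicate 3 (0.61, adjusted p = 0.0430) or 4 (0.64, adjusted p = 0.0304), and Dusp1 passed without knockout vehicle replicate 1 (-0.43, adjusted p = 0.0452). The Dusp1 difference was smaller without wild-type vehicle replicate 1 (-0.25, adjusted p = 0.293) and with every library thinned to the smallest total (-0.17, adjusted p = 0.643), and larger with Alb as a covariate (-0.53, SE 0.282, adjusted p = 0.345). Dusp5 differed by 0.28 (SE 0.129; edgeR adjusted p = 0.127), Dusp6 by 0.32 (SE 0.237), Spry4 by 0.34 (SE 0.493), Dusp10 by -0.18 (SE 0.165), Spry2 by -0.18 (SE 0.226) and Spred1 by -0.24 (SE 0.265). Leaving out 1 library gave 0.18 to 0.40 for Dusp6, 0.10 to 0.57 for Spry4, -0.28 to -0.06 for Dusp10, -0.34 to 0.00 for Spry2 and -0.31 to -0.12 for Spred1, and thinning gave -0.40 for Dusp10 and -0.50 for Spry2. In the fit with Alb as a covariate Dusp5 was at 0.12, Dusp6 at 0.92, Dusp16 at 0.50, Spry2 at -0.80, Spred1 at -1.02 and Spry4 at -1.58, none of them past the threshold. The background in this comparison was wide: 20.7% of all tested genes passed the adjusted threshold against 1 of 9 members, 32.9% had an unadjusted p under 0.05 against 4 of 9, and 22.1% had groups that did not overlap against 2 of 9.

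With ivermectin in both lines, Dusp1 was the member that passed. It fell from 66.3 ± 5.68 CPM in wild type to 47.5 ± 7.61 CPM in the line labelled knockout (n = 4), a log2 difference of -0.48 (SE 0.118, interval -0.72 to -0.24; edgeR adjusted p = 0.00221). The groups met at their edges, since knockout replicate 4 (58.9 CPM) stood above wild-type replicate 1 (58.5 CPM). The difference passed when any 1 library was left out, at -0.59 to -0.44, and with every library thinned to the smallest total it was -0.49 (adjusted p = 0.0514). Dusp4, the member that differed with vehicle, was here at 0.14 (SE 0.0990, interval -0.07 to 0.34), and at 0.04 without wild-type ivermectin replicate 1. Dusp5 differed by -0.23 (SE 0.111; edgeR adjusted p = 0.130), and without wild-type ivermectin replicate 1 it passed at -0.32 (adjusted p = 0.0338). The rest were Spry4 at -0.63 (SE 0.404), Dusp10 at -0.22 (SE 0.140), Dusp6 at -0.10 (SE 0.210), Dusp16 at -0.08 (SE 0.179), Spry2 at 0.02 (SE 0.222) and Spred1 at 0.03 (SE 0.238). Leaving out 1 library gave -1.05 to -0.42 for Spry4, -0.28 to -0.13 for Dusp10, -0.34 to 0.02 for Dusp6, -0.17 to -0.03 for Dusp16, -0.16 to 0.14 for Spry2 and -0.18 to 0.29 for Spred1, and thinning gave -0.41 for Dusp10. With Alb as a covariate Spry4 was at -1.035 (edgeR adjusted p = 0.0588), Dusp4 at 0.047 and Dusp1 at -0.51 (edgeR adjusted p = 0.002615). Of all tested genes 27.8% passed the adjusted threshold against 1 of 9 members, 38.2% had an unadjusted p under 0.05 against 2 of 9 (Dusp1 and Dusp5), and 25.3% had groups that did not overlap against 0 of 9. The difference between these comparisons of the lines is the interaction reported above, which did not pass for Dusp1 or Dusp4.

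The wider pathway was read from 58 listed genes, a list also written with earlier results of these libraries known. With ivermectin in wild-type cells, 4 of 12 tested ERK target genes passed the adjusted threshold (background 0.601%), each of them higher: the zinc-finger factor Egr1 by 1.53 (SE 0.134), the AP-1 subunits Fos by 1.28 (SE 0.227) and Junb by 0.91 (SE 0.149), and the immediate-early gene Ier2 by 0.87 (SE 0.186), with edgeR adjusted p-values of 2.10e-09, 0.000616, 0.000192 and 0.00766. Of the other 8 targets, 6 were higher and 2 lower without passing, from the AP-1 subunit Fosb at 0.87 (edgeR adjusted p = 0.109) to Errfi1 at -0.43 (adjusted p = 0.657). In all 6 of 12 targets had an unadjusted p under 0.05, where the background was 5.2%. Each of the 4 differences that passed was larger than that of any phosphatase of the set in the same libraries. Over all 12 tested targets, however, the median was 0.099, against 0.33 over the 9 tested members. None of the other 4 tested members of the phosphatase, Sprouty and Spred families passed (Dusp7, Dusp8, Spred2 and Spred3), nor any of 21 cascade genes from receptors to ERK or 10 stress kinase genes, of which 0, 2 and 1 had an unadjusted p under 0.05, where the background was 5.2%. With Alb as a covariate, 1 of the 47 tested pathway genes passed in this comparison, and it was the only gene of the 10820 that did. In the line labelled knockout none of the 47 tested pathway genes passed with ivermectin by edgeR or DESeq2, while 3 of 12 targets, 1 of 21 cascade genes and 1 of 10 stress kinase genes had an unadjusted p under 0.05, where the background was 7.58%. There Egr1 was at 0.31 (SE 0.116), Fos at 0.47 (SE 0.201), Junb at 0.47 (SE 0.132) and Ier2 at 0.23 (SE 0.154). The interaction passed for 1 of the 12 targets, Egr1 at -1.22 (SE 0.179; edgeR adjusted p = 0.000361), where the background was 0.222%. With Alb as a covariate it passed for 0 pathway genes, in a fit where 0% of all genes passed. In the reported fit the interaction did not pass for Fos (-0.81), Ier2 (-0.64) or Junb (-0.44), with edgeR adjusted p-values of 0.847, 0.847 and 0.962. There 5 of 12 targets had an unadjusted p under 0.05 (background 5.11%). Between the lines with vehicle, where the background was 20.7%, 9 of 21 cascade genes passed, 2 higher and 7 lower in the line labelled knockout, among them Egfr at -0.78, the phosphatase gene Ptpn11 at -0.28 and Araf at 0.40. The JNK gene Mapk10 was at -0.88 and the p38 kinase kinase Map2k3 at 0.70, 2 of 4 stress kinase genes that passed of 10. Of the targets, Egr1 at 0.67 and the EGFR inhibitor gene Errfi1 at -0.61 passed. With Alb as a covariate 0 pathway genes passed there, against 3.72% of all genes, and after thinning 8, against 12.5%. With ivermectin, 9 of 21 cascade genes (3 higher and 6 lower) and 3 of 10 stress kinase genes passed against a background of 27.8%. After thinning, 5 pathway genes passed there in place of 14, against a background of 14.1%. Of the 12 targets 2 passed there: Egr1 at -0.55 and Fos at -0.59 were lower in the line labelled knockout, as was Dusp1.

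**Figure D4:**
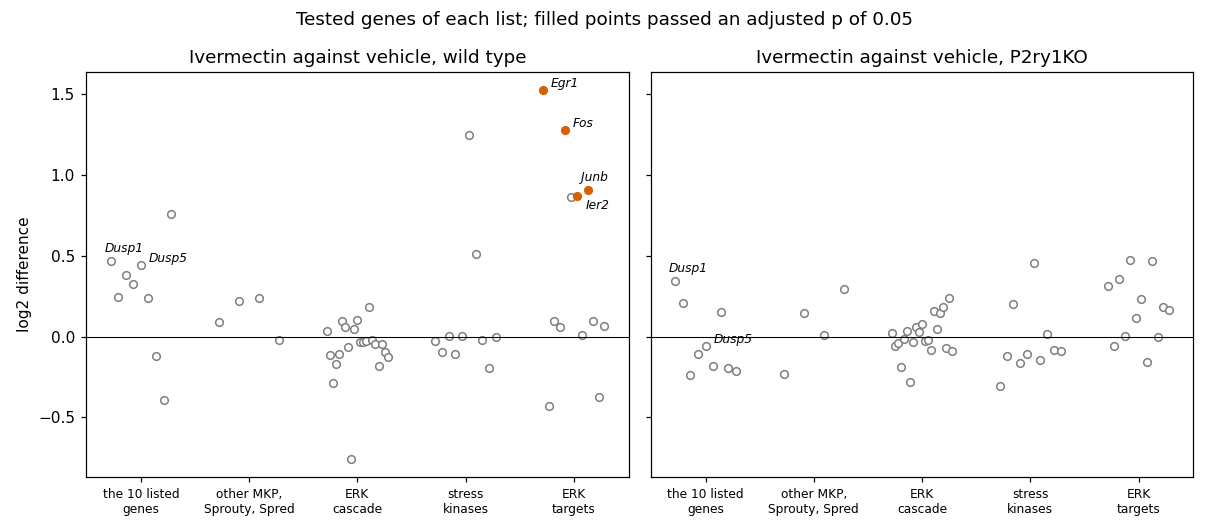
Log2 differences of ivermectin against vehicle for the tested genes of each list, wild type on the left and P2ry1KO on the right, with filled points past an adjusted p of 0.05. The 4 filled points are Egr1, Fos, Junb and Ier2 in wild type, and Dusp1 lies at 0.47 on the left and 0.34 on the right.

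Across the 16 libraries, the genes whose log2 CPM followed each phosphatase most closely were also sought among 10147 genes. By Pearson's r, Dusp1 was closest to Nr4a1, an immediate-early nuclear receptor gene, at 0.888, with Spearman's rho of 0.829 and 0.615 for deviations from the group means. The following genes for Dusp1 by r were 4933421O10Rik (0.844) and Dnajc3 (0.838), a chaperone of the endoplasmic reticulum. By rho both stood above Nr4a1 (0.835 and 0.885), and for deviations from the group means both stood below it (0.541 and 0.405). Again by Pearson's r, Dusp5 was closest to Socs3 (0.789), a feedback inhibitor of cytokine receptors, then Depdc5 (0.783) and Cd82 (0.751). Dusp4 was closest by r to Cenpm (0.887), Elovl6 (0.852) and Prkx (0.852), while by rho Prkx (0.85) and Elovl6 (0.824) stood above Cenpm (0.791). The libraries share 4 group means and differ in depth, so these values describe the table and carry no test.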

How the data were processed

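Per the submitters' processing notes, the authors used bcl2fastq, STAR 2.7.2b, RSEM 1.3.3 and DESeq2 1.32.0 with the mm10 assembly. Per the labels' protocols, the directional libraries took 125 ng of RNA each through poly(A) bead selection and 11 amplification cycles, with paired reads of 42 bases. The deposited table holds whole-number counts per gene. It equals the expected counts that the authors deposited per library from RSEM, rounded down, in all 373264 values. TPM are the authors' values per the file headers and served only for levels. No value came from human donor files or the deposited normalised table.

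Counts were fitted with edgeR 4.0.16 (R 4.3.3): filterByExpr (minimum count 10, minimum total 15), TMM factors, glmQLFit with 1 mean per group over 16 libraries, glmQLFTest and Benjamini-Hochberg adjustment over 10820 genes. SE came from the difference and its F statistic. CPM are TMM-scaled, except marker sums and the limits for a count of 0 (3 counts), which use library totals; such limits cover counting error only. The code was tested on simulated data. Genes were matched by symbol to RefSeq tables on GRCm38.p6.

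All 10 members are named. Pathway genes are named where they passed, at most 4 per list by p, and the 3 nearest genes by correlation (prior count 2, mean log2 CPM at least 3). Genes quoted where they did not pass were taken for comparison with a gene that did. The members, lists, markers and rules were chosen with earlier results of these data known. Alternatives were DESeq2 1.42.0, relative log expression factors, rounded expected counts, no low-count filter, only the libraries compared, Alb as a covariate, thinning, a replicate block and leaving out each library.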

Additional observations from a re-analysis of the deposited data

Results flagged for a closer look

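In each group of 4 libraries, the highest or lowest CPM was examined for a gap to its neighbour of more than 0.829 of the group's range. This was done in the 4 groups for the 9 tested members, P2ry1, Alb and the library totals, 48 combinations in all, of which 4 exceeded it, where chance alone gives about 1 in 20, or 2.4. All 4 were among the 36 combinations of the members, where chance gives about 1.8. Dusp1 in wild-type vehicle replicate 1 read 58.46 CPM against 43.66 to 44.99 in the other 3 libraries. Dusp1 in knockout ivermectin replicate 4 read 58.87 CPM against 42.85 to 44.5. Without the former, the wild-type ivermectin difference of Dusp1 was 0.57 in place of 0.47, and the difference between the lines in vehicle -0.25 in place of -0.36. Without the latter, the ivermectin difference in knockout was 0.23 in place of 0.34, and the difference between the lines in ivermectin -0.59 in place of -0.48. Dusp4 in wild-type ivermectin replicate 1 read 78.46 CPM against 102.5 to 106.4, and Dusp6 in knockout vehicle replicate 1 read 24.97 CPM against 16.55 to 17.96. Alb was the highest of its group in 3 of these 4 libraries, at 923 CPM in wild-type vehicle replicate 1, 172 CPM in wild-type ivermectin replicate 1 and 52.3 CPM in knockout vehicle replicate 1. Its part in these values was not tested. Knockout ivermectin replicate 4 had 29.8 CPM of Alb, where its group ran from 28.0 to 144. The highest there was again replicate 1, so Alb was highest in replicate 1 of all 4 groups, with or without a flagged value.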

How the results depend on the processing

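Of the single-gene values under the alternatives, 761 kept their direction and their side of the threshold, 8 newly passed it, 2 no longer did and 27 changed sign, all of the last among differences that had not passed. The members' counts changed as follows. The count for ivermectin in wild type ranged from 0 to 1 when 1 library was left out. The count for knockout against wild type was 0 with Alb as a covariate in vehicle and 0 after thinning in ivermectin, and 1 to 2 with 1 library left out in either. The averaged contrast gave 1 without the low-count filter and 0 to 1 with 1 library left out. For pathway genes, Alb as a covariate left 1 for ivermectin in wild type, 0 for knockout against wild type in vehicle and 0 for the interaction, in fits that called 0.00924%, 3.72% and 0% of all genes. Having no low-count filter gave 2 for ivermectin in knockout and 3 for the interaction, which was 1 to 2 with 1 library left out (0.13% and 0.463% of all genes without the filter). Thinning left 8 for knockout against wild type in vehicle and 5 in ivermectin, where 12.5% and 14.1% of all genes passed. The cause of these changes was not tested, though thinning discards counts.

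With Alb as a covariate, Spry4 was at -0.48 for ivermectin in wild type, 0.059 for ivermectin in knockout, -1.58 for knockout against wild type in vehicle and 0.54 for the interaction, and Dusp1 was at 0.012 for the interaction. The same covariate gave Dusp6 0.00883, Spry2 -0.10 and Spred1 -0.12 for knockout against wild type in ivermectin. Thinning gave Dusp6 0.013 and Spry2 0.32 for ivermectin in knockout, and Spred1 -0.045 for knockout against wild type in ivermectin. Leaving out 1 library gave ranges across 0 for Dusp10 in the interaction (-0.15 to 0.069), Spred1 with ivermectin in wild type (-0.38 to 0.10), Spry4 with ivermectin in knockout (-0.64 to 0.029), Spry2 between the lines in vehicle (-0.34 to 0.0030), and, between the lines in ivermectin, Dusp6 (-0.34 to 0.017), Spry2 (-0.16 to 0.14) and Spred1 (-0.18 to 0.29).

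Replicate numbers showed little pairing over all genes, with correlations of same-numbered deviations between -0.0566 and 0.145. Libraries of a group were closest to their own number in 0 to 3 of 4. Alb, by contrast, was highest in replicate 1 of every group (923, 172, 52.3 and 144 CPM). Whether same-numbered libraries shared a step was not tested. A replicate block left every member count as reported (0, 0, 1, 1, 0 and, for the averaged contrast, 0) and gave 16 pathway genes in each comparison of the lines. Depth limits Dusp2, with 4 counts in all libraries, and Spry4, with 3 to 14 counts per library, most. The Dusp5 level of 94.2 TPM was 55.4 with the current RefSeq length, which is longer. The Spred1 level of 6.41 TPM was 9.95 and 2.93 with the shortest and longest RefSeq lengths. Spry4 fell under the count filter in some alternatives, thinning among them, and has no value there.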
